A study of Mus musculus with 12 samples.

Results

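The tripartite motif (Trim) family was followed in cultured mouse adipocytes across 4 treatments. Its members were taken as all genes whose symbol begins with Trim and a digit in the array's probe-to-gene annotation, read from probe sets that carry 1 gene symbol, with the brightest probe set kept for each gene. The rule used no comparison between groups, but the family was chosen with earlier results of these data known. It gave 64 Trim genes of 22184 genes measured, 63 of them protein coding and 1 a pseudogene, Trim30e-ps1.

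TRIM proteins carry, in most members, a RING finger that gives ubiquitin ligase activity, followed by B-box zinc fingers and a coiled coil, and they differ in the domain at the carboxyl end. Many members with a PRY-SPRY domain at that end act in antiviral defence: they bind viral proteins or set the strength of signalling from RNA and DNA sensors, and several are themselves induced by interferon. Other branches work on chromatin, on microtubules or in striated muscle. In adipocytes, Prdm16 is known as a transcriptional regulator of the brown and beige fat programme, and the series asks what its loss does to type I interferon response genes.

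All 12 arrays came from inguinal adipose precursor cells of mice of the genotype R26Cre/Prdm16floxEx9, in which a Cre recombinase sits at the Rosa26 locus and exon 9 of Prdm16 is flanked by loxP sites. In the growth phase, in medium with 10% serum, cells received either ethanol or 1 uM 4-hydroxytamoxifen for 3 days. They were then differentiated with isobutylmethylxanthine, indomethacin, dexamethasone, insulin and T3 (triiodothyronine). The groups EtOH and 4OHT carry no further label, and the groups EtOH_Rosi and 4OHT_Rosi were also stimulated with 1 uM rosiglitazone, a PPARG agonist, with 3 arrays in each of the 4 groups. The protocol text that all samples share also names rosiglitazone, so that EtOH and 4OHT went without it rests on the labels of the single samples. The labels do not give the animals' age, sex or number, nor whether the 3 arrays of a group came from separate cultures, so the p-values rest on a spread among arrays that may be technical alone. No group without Cre received 4-hydroxytamoxifen, so effects of the drug, of Cre activity and of Prdm16 loss cannot be told apart.

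Signals are on a log2 scale, on which a difference of 1 is a doubling. They ran from 3.05 to 13.91 over all probe sets, with array medians of 5.97 to 6.05, and the number of arrays limits the precision. Pairs of arrays correlated at 0.996 to 0.998 within a group and at 0.981 to 0.996 across groups. The third 4OHT_Rosi array stood apart on the third principal component, at 16.03 against -8.95 to 7.98 for the other arrays, and calls of Trim genes that change without it are given with that value, here or in the closing section. Prdm16 was lower in 4OHT_Rosi (6.65 ± 0.04, SD, n = 3) than in EtOH_Rosi (7.37 ± 0.14), by 0.71 ± 0.10 (SE; limma, Benjamini-Hochberg adjusted p = 0.000646). Without rosiglitazone its difference was -0.17 ± 0.10 (adjusted p = 0.455), and whether its probe set covers exon 9 was not examined here. The adipocyte marker Adipoq read 10.57 in EtOH and 11.06 in 4OHT_Rosi. The median gene read 6.60. Of 18 macrophage markers, 2 lay below it, and their means over the 12 arrays ran from 5.49 to 11.59 (Cd68 read 11.35 in EtOH). All 10 endothelial markers lay above it, with means from 6.76 to 11.35 (Cdh5 read 11.74 in EtOH). All 10 measured lymphocyte markers lay below it. In such bulk cultures, fewer cells of a type and less RNA per cell cannot be told apart.

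Mean signals of the 64 Trim genes ran from 3.76 to 10.26, with a median of 6.76, and 33 of them reached the median gene. The probe sets with the highest mean signals were those of Trim44, a family member without a RING finger, Trim24, a coregulator of nuclear receptors, and Trim8, a ligase that acts in cytokine signalling. Trim44 read 10.17 ± 0.05 in EtOH and 10.29 ± 0.06 in 4OHT, and with rosiglitazone 10.21 ± 0.01 after ethanol and 10.38 ± 0.02 after 4-hydroxytamoxifen (SD, n = 3 each). Its difference between 4OHT_Rosi and EtOH_Rosi was 0.17 ± 0.05 (SE), and it did not pass the test (limma, adjusted p = 0.0734), although it passed with an intensity trend and in the upper range of signal (adjusted p = 0.026 in each). Signals of different probe sets differ in probe response, so their order does not rank the amounts of RNA. A gene was called at a Benjamini-Hochberg adjusted p under 0.05 over all 22184 genes, in a limma fit to the 12 arrays. By this rule 29 Trim genes were called in at least 1 comparison, 24 of them above the median gene's signal and 5 below it, and 35 in none. The matching share of all genes was not computed, so this count does not set the family apart. In the comparison of EtOH_Rosi with EtOH alone, 30.7% of all genes were called.

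The results turn most on Trim30a and Trim30d, neighbouring PRY-SPRY genes found in mouse. Trim30a is known to be induced through interferon and Toll-like receptor signalling, and to restrain NF-kB activation. The 250 bases upstream of their annotated start sites are shown because both genes rose most after 4-hydroxytamoxifen. They were read from RefSeq sequence of GRCm38.p6, 5′ to 3′ on the gene's strand, at chr7:104465194-104465443 (minus strand) for Trim30a and chr7:104507850-104508099 (minus strand) for Trim30d. Capitals mark a match to the core repeat of interferon-stimulated response elements, searched as GAAA, any 2 bases and GAAA, or on the other strand as TTTC, any 2 bases and TTTC.

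Trim30a: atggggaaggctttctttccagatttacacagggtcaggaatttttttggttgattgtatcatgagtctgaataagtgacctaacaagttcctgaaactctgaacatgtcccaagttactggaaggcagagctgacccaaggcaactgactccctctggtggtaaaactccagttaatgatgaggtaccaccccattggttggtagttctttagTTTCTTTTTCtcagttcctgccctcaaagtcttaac
Trim30d: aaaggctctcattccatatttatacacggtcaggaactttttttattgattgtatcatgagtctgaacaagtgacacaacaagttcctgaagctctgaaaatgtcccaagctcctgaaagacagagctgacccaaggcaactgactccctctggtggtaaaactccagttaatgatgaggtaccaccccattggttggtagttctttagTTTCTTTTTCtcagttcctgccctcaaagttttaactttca

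The promoter windows of the pair, from 250 bases before to 50 after the start, were identical at 276 of 295 aligned bases (93.6%). The match begins at position -36 in Trim30a and at -41 in Trim30d, counting the first transcribed base as 1 and the base before it as -1. Trim30a has another annotated start, with a match at position 3. Both strands were searched, and overlapping matches were counted.

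Of the 64 Trim genes, 49 had a promoter window in the RefSeq table, and 8 of those (16.3%) held a match, against 1079 of 27025 genes (3.99%) in the whole table. The 8 were Trim2, Trim12a, Trim12c, Trim21, Trim26, Trim30a, Trim30d and Trim34a. The sites of the other members, and of the other Trim30a start, are shown as 30 bases each, since 5 of these 6 genes rose in the comparisons described next and Trim2 did not. Their places in GRCm38.p6 are chr7:104446104-104446133 (minus strand) for the other Trim30a start, chr7:104315466-104315495 (minus) for Trim12a, chr7:104353359-104353388 (minus) for Trim12c and chr7:104244457-104244486 (plus) for Trim34a. Those of the remaining 3 are chr7:102565447-102565476 (minus) for Trim21, chr17:36836979-36837008 (plus) for Trim26 and chr3:84212791-84212820 (minus) for Trim2.

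Trim30a, other start: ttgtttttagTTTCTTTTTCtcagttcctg
Trim12a: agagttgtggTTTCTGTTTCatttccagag
Trim12c: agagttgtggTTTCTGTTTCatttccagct
Trim34a: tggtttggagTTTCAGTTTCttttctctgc
Trim21: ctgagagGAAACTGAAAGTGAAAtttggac
Trim26: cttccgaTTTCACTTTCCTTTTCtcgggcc
Trim2: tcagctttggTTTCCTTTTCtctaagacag

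Trim21 and Trim26 each held 2 overlapping matches, and the other sites 1. The Trim12a and Trim12c windows were identical at 247 of 260 aligned bases (95.0%). These are matches of letters in a window, and binding at them was not measured.

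The first comparison asks what 4-hydroxytamoxifen did to the family in cells differentiated without rosiglitazone. Of the 64 Trim genes 7 rose and 1 fell, 12.5% called, against 3.91% of all genes (2.13% higher and 1.79% lower). The genes that rose were Trim30a, Trim30d, Trim21, Trim25, Trim67, Trim43c and Trim14, and Trim59 fell. The arrays of the groups did not overlap for 23 members (35.9%), against 22.9% of all genes. The median difference of the members was 0.03, against 0.00 for all genes.

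The second comparison asks the same in cells differentiated with rosiglitazone. Its differences use none of the arrays of the first. The spread behind the p-values was estimated from all arrays together, so calls in the second are not independent of those in the first. Here 13 Trim genes rose and 0 fell, 20.3% called, against 8.03% of all genes (4.65% higher and 3.38% lower). They were Trim30d, Trim30a, Trim21, Trim12a, Trim25, Trim12c, Trim34a, Trim14, Trim8, Trim29, Trim26, Trim38 and Trim66. The arrays did not overlap for 22 members (34.4%), against 21.8% of all genes, and the median difference was 0.04, against -0.01. Trim14, Trim21, Trim25, Trim30a and Trim30d rose in both comparisons, 5 of the 7 that rose without rosiglitazone and 5 of the 13 that rose with it. The share of all genes that rose in both was not computed.

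**Figure D1:**
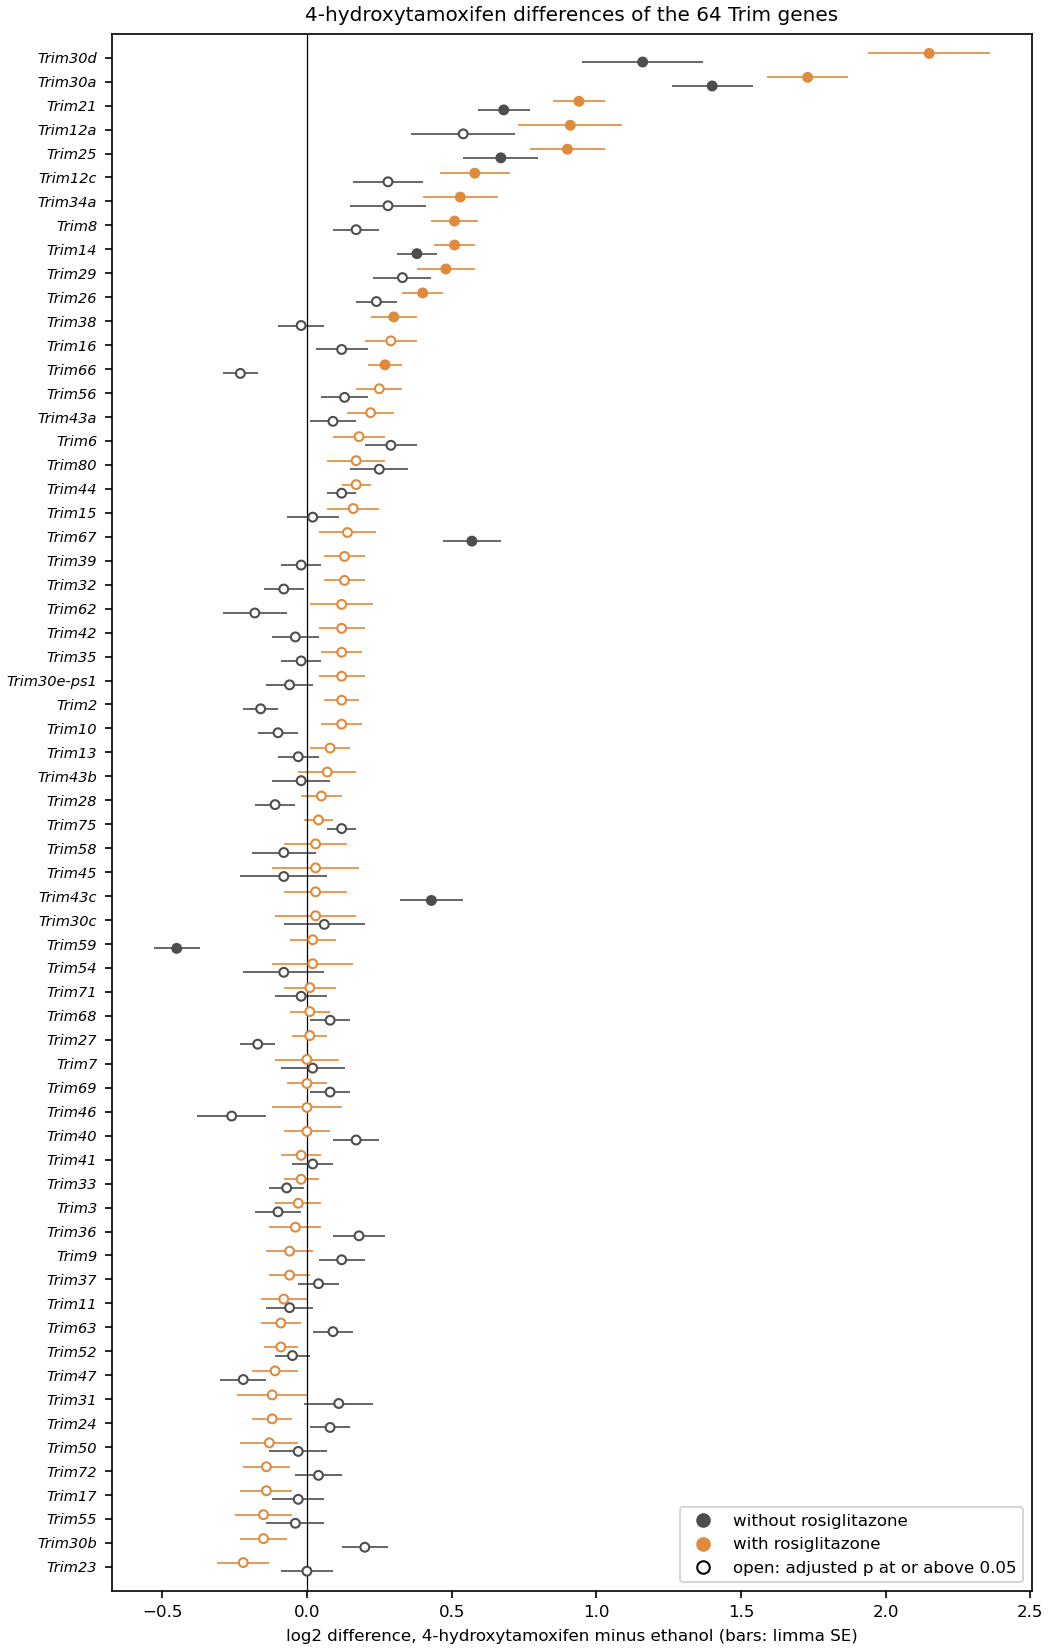
Log2 difference of 4-hydroxytamoxifen minus ethanol (horizontal axis) for each of the 64 Trim genes, without rosiglitazone (dark) and with it (orange). Points are limma estimates with their SE and filled points have an adjusted p under 0.05; Trim30d and Trim30a lie farthest to the right, at 2.15 and 1.73 with rosiglitazone.

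Trim30a read 6.30, 6.89 and 6.94 in the EtOH arrays, 8.13, 8.02 and 8.17 in 4OHT, 6.22, 6.20 and 6.16 in EtOH_Rosi, and 7.86, 7.80 and 8.11 in 4OHT_Rosi. Every array that had received 4-hydroxytamoxifen was above every array that had received ethanol. The difference was 1.40 ± 0.14 (SE; 2.63-fold, limma adjusted p = 7.97e-05) without rosiglitazone and 1.73 ± 0.14 (3.32-fold, adjusted p = 1.06e-05) with it.

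Trim30d, which lies beside Trim30a, read 7.08, 7.80 and 7.54 in EtOH, 8.72, 8.63 and 8.55 in 4OHT, 6.91, 6.46 and 6.07 in EtOH_Rosi, and 8.73, 8.30 and 8.85 in 4OHT_Rosi. The 6 arrays with 4-hydroxytamoxifen were again above the 6 with ethanol, and the EtOH_Rosi arrays were the lowest. The difference was 1.16 ± 0.21 (2.23-fold, limma adjusted p = 0.00619) without rosiglitazone and 2.15 ± 0.21 (4.43-fold, adjusted p = 3.82e-05) with it. The gap between these 2 differences, 0.99 ± 0.29, did not pass the test (adjusted p = 0.142), though it did without the first EtOH_Rosi array (1.20, adjusted p = 0.0479). The Trim30 genes are close copies, and probes of 1 may read RNA of another, so the values of each are uncertain. Their relatives Trim30b and Trim30c had signals of 5.31 or less on every array, and neither was called: the differences of Trim30b were 0.20 and -0.15 and those of Trim30c 0.06 and 0.03.

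Trim21, a cytosolic antibody receptor and ubiquitin ligase, read 8.89, 8.93 and 8.72 in EtOH, 9.52, 9.39 and 9.68 in 4OHT, 8.51, 8.60 and 8.40 in EtOH_Rosi, and 9.37, 9.35 and 9.61 in 4OHT_Rosi. Arrays with and without 4-hydroxytamoxifen did not overlap. Its rise was 0.68 ± 0.09 (1.61-fold, limma adjusted p = 0.000891) without rosiglitazone and 0.94 ± 0.09 (1.92-fold, adjusted p = 4.78e-05) with it.

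Trim25, the ligase that acts on the RNA sensor RIG-I, read 8.88, 9.06 and 8.61 in EtOH, 9.55, 9.46 and 9.55 in 4OHT, 9.15, 9.06 and 8.65 in EtOH_Rosi, and 9.88, 9.75 and 9.94 in 4OHT_Rosi. The ethanol arrays spread more than the others, and none reached a 4-hydroxytamoxifen array. Its rise was 0.67 ± 0.13 (1.59-fold, limma adjusted p = 0.00854) without rosiglitazone and 0.90 ± 0.13 (1.87-fold, adjusted p = 0.000672) with it. The Trim25 window is in the promoter table and held no match to the motif.

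Trim14, a mitochondrial adaptor of antiviral signalling that lacks a RING finger, read 6.86, 6.92 and 6.92 in EtOH, 7.30, 7.28 and 7.27 in 4OHT, 7.25, 7.30 and 7.20 in EtOH_Rosi, and 7.66, 7.92 and 7.71 in 4OHT_Rosi. The 4OHT and EtOH_Rosi arrays overlapped, and the 4OHT_Rosi arrays lay above both. Its rise was 0.38 ± 0.07 (1.30-fold, limma adjusted p = 0.00553) without rosiglitazone and 0.51 ± 0.07 (1.43-fold, adjusted p = 0.000411) with it. Leaving out any 1 of the 12 arrays kept the calls of Trim30a, Trim30d, Trim21, Trim25 and Trim14 in both comparisons.

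**Figure D2:**
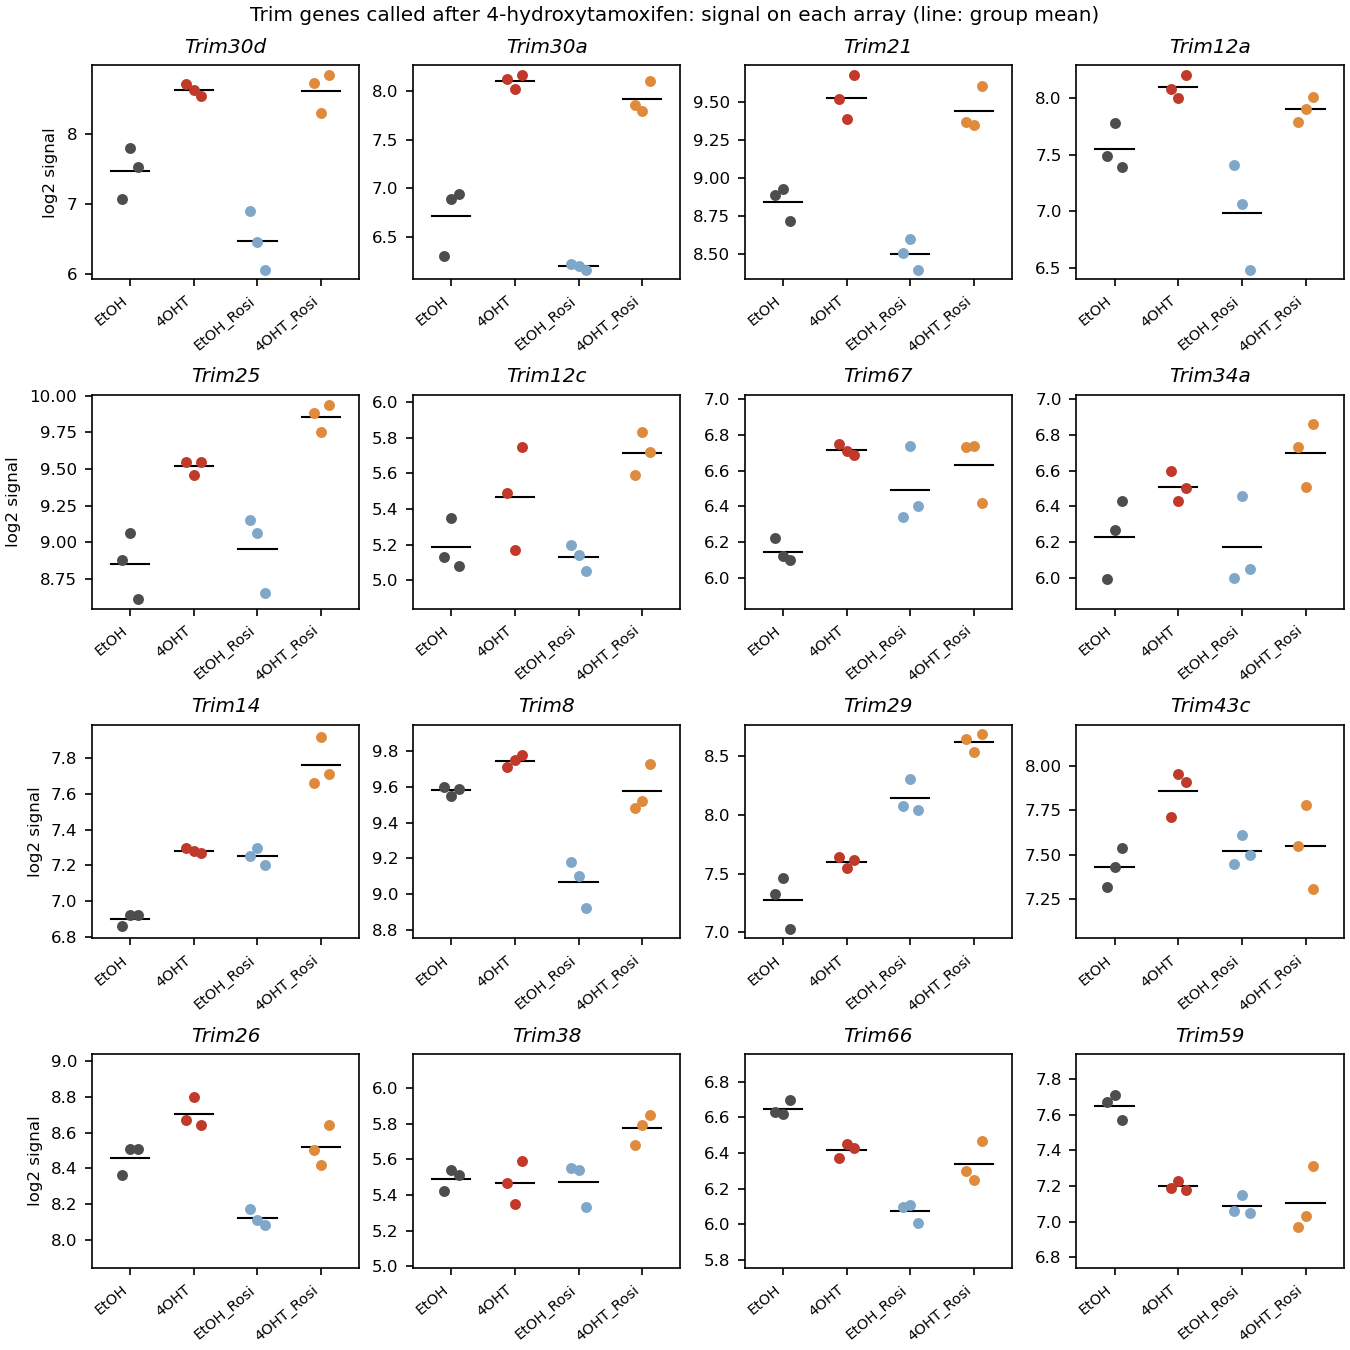
Log2 signal on each array (vertical axis, scaled for each gene) of the 16 Trim genes called in either 4-hydroxytamoxifen comparison, by group, with a line at the group mean of 3 arrays. Trim30a, Trim30d, Trim21 and Trim25 are high in both 4-hydroxytamoxifen groups, while Trim14 and Trim29 also step up with rosiglitazone and Trim59 is high in EtOH alone.

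Trim12a and Trim12c are mouse relatives of TRIM5, a protein that restricts retroviruses. Trim12a read 7.55 ± 0.20 in EtOH and 8.09 ± 0.10 in 4OHT, and with rosiglitazone 6.99 ± 0.47 after ethanol and 7.90 ± 0.11 after 4-hydroxytamoxifen (SD, n = 3 each), with the widest spread in EtOH_Rosi. It rose by 0.91 ± 0.18 (1.88-fold, limma adjusted p = 0.00593) with rosiglitazone. Without rosiglitazone its difference of 0.54 ± 0.18 missed the threshold (adjusted p = 0.121), although the arrays did not overlap, and it passed without the first EtOH_Rosi array (adjusted p = 0.0488) or the third (adjusted p = 0.0161). Trim12c rose by 0.58 ± 0.12 (1.50-fold, adjusted p = 0.0099) with rosiglitazone, from 5.13 ± 0.08 to 5.71 ± 0.12 (SD, n = 3 each), and its difference without rosiglitazone was 0.28 (adjusted p = 0.268). Trim12a and Trim12c share much of their sequence, so their probe sets may not tell them apart.

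Trim34a, a relative of a capsid-binding human protein, rose with rosiglitazone by 0.53 ± 0.13 (1.44-fold, limma adjusted p = 0.0266), from 6.17 ± 0.25 to 6.70 ± 0.18. The call was lost without the first or the third EtOH_Rosi array (adjusted p = 0.0921 and 0.095) and without the first or the third 4OHT_Rosi array (adjusted p = 0.07 and 0.101). Its other, dimmer probe set stayed between 3.61 and 3.89 on all 12 arrays. Its difference without rosiglitazone was 0.28 (adjusted p = 0.327).

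Trim26, a ligase of the major histocompatibility region, read 8.36, 8.51 and 8.51 in EtOH, 8.67, 8.80 and 8.64 in 4OHT, 8.17, 8.11 and 8.08 in EtOH_Rosi, and 8.50, 8.42 and 8.64 in 4OHT_Rosi. Each 4-hydroxytamoxifen group lay above the ethanol group it was compared with, and the EtOH and 4OHT_Rosi arrays overlapped. It rose by 0.40 ± 0.07 (1.32-fold, limma adjusted p = 0.00376) with rosiglitazone, and its difference without was 0.24 (adjusted p = 0.0869).

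Trim38, a ligase of innate immune signalling, rose by 0.30 ± 0.08 (1.23-fold, limma adjusted p = 0.0357) with rosiglitazone, from 5.47 ± 0.12 to 5.77 ± 0.09, and differed by -0.02 without (adjusted p = 0.95). The rise with rosiglitazone was lost on leaving out any of 6 arrays. It was 0.30 without the second EtOH array (adjusted p = 0.0505) or the first 4OHT array (0.0529), and 0.33 (0.0549) or 0.23 (0.133) without the second or the third EtOH_Rosi array. Without the second or the third 4OHT_Rosi array it was 0.29 (0.0907) or 0.26 (0.118).

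On a list of 18 Trim genes known as interferon-inducible or antiviral, 15 were measured. The list comes from general knowledge, but it was chosen with earlier results of these data known. Of these 5 rose and 0 fell without rosiglitazone, with a median difference of 0.28, and 10 rose and 0 fell with it, with a median of 0.51. The corresponding medians of all genes were 0.00 and -0.01, and 2.13% and 4.65% of all genes rose. Leaving out 1 array at a time, an alternative chosen after seeing the data, gave 5 to 6 and 8 to 10 that rose. The 5 that were not called in either were Trim6, Trim56, Trim69, Trim30b and Trim30c. Trim6, which helps activate an antiviral kinase, differed by 0.29 (adjusted p = 0.0976) and 0.18 (0.27), and it passed without rosiglitazone when the second EtOH array was left out (0.40, adjusted p = 0.0228). Trim56, a ligase tied to DNA sensing, differed by 0.13 (adjusted p = 0.466) and 0.25 ± 0.08 (0.0707). Trim69, which binds microtubules and blocks some viruses, differed by 0.08 and -0.00. Trim5, Trim34b and Trim65 of the list had no probe set of a single symbol and were not tested.

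Outside that list, 2 of the 49 other Trim genes rose without rosiglitazone and 3 with it, against 2.13% and 4.65% of all genes, and 1 fell without it. Trim59, a membrane-anchored ligase, read 7.67, 7.71 and 7.57 in EtOH, 7.19, 7.23 and 7.18 in 4OHT, 7.06, 7.15 and 7.05 in EtOH_Rosi, and 6.97, 7.03 and 7.31 in 4OHT_Rosi. The EtOH arrays were above all others, and the 4OHT_Rosi arrays overlapped both 4OHT and EtOH_Rosi. It fell by 0.45 ± 0.08 (limma adjusted p = 0.00613) without rosiglitazone, and its difference with rosiglitazone was 0.02. The gap between these differences, 0.47 ± 0.11, missed the threshold (adjusted p = 0.0779) and passed without the first 4OHT_Rosi array (0.53, adjusted p = 0.0391).

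Trim8 read 9.60, 9.55 and 9.59 in EtOH, 9.71, 9.75 and 9.78 in 4OHT, 9.18, 9.10 and 8.92 in EtOH_Rosi, and 9.48, 9.52 and 9.73 in 4OHT_Rosi. The EtOH_Rosi arrays were the lowest, and the EtOH arrays lay within the range of 4OHT_Rosi. It rose by 0.51 ± 0.08 (1.42-fold, limma adjusted p = 0.00127) with rosiglitazone, and its difference without was 0.17 (adjusted p = 0.316).

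Trim29, a member without a RING finger that is known from epithelia, rose by 0.48 ± 0.10 (1.40-fold, limma adjusted p = 0.00955) with rosiglitazone, from 8.14 ± 0.15 to 8.63 ± 0.08 (SD, n = 3 each). Its difference without rosiglitazone was 0.33 (adjusted p = 0.0986), with arrays that did not overlap. Trim67, a brain gene of the group with a microtubule-binding COS box, rose by 0.57 ± 0.10 (1.48-fold, adjusted p = 0.00712) without rosiglitazone, from 6.15 ± 0.06 to 6.72 ± 0.03. Its difference with rosiglitazone was 0.14 and not called. Trim43c, of a group expressed in the early embryo, rose by 0.43 ± 0.11 (1.34-fold, adjusted p = 0.0423), from 7.43 ± 0.11 to 7.86 ± 0.13. That call was lost on leaving out any of 9 of the 12 arrays (differences from 0.37 to 0.48, adjusted p up to 0.159) and held without the first 4OHT array and without the second or the third 4OHT_Rosi array. The Trim43 genes are close copies, so the value of Trim43c is uncertain.

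Trim66, a heterochromatin protein with a PHD finger and a bromodomain, was the only Trim gene for which the gap between the 2 differences passed the test, at 0.50 ± 0.09 (limma adjusted p = 0.0252), 1.56% of members against 1.01% of all genes (0.523% higher). It read 6.65 ± 0.04 in EtOH and 6.42 ± 0.04 in 4OHT, and with rosiglitazone 6.07 ± 0.06 after ethanol and 6.34 ± 0.12 after 4-hydroxytamoxifen (SD, n = 3 each), so the EtOH arrays were the highest and the EtOH_Rosi arrays the lowest. The 4-hydroxytamoxifen difference was -0.23 without rosiglitazone (adjusted p = 0.0687; 0.0289 without the third 4OHT_Rosi array) and 0.27 ± 0.06 with it (1.20-fold, adjusted p = 0.0229). The second was lost without the third EtOH_Rosi array (0.24, adjusted p = 0.0863) or the third 4OHT_Rosi array (0.20, adjusted p = 0.0808). The gap was lost on leaving out any of 8 of the 12 arrays, all but the first EtOH_Rosi array and the 3 of 4OHT_Rosi (0.47 to 0.52, adjusted p up to 0.0839). Its signal lies below the median gene.

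The other chromatin members, Trim24, Trim28 and Trim33, were called in neither 4-hydroxytamoxifen comparison. Trim28, the corepressor recruited by KRAB zinc finger proteins, differed by -0.11 and 0.05. Trim33, which acts on SMAD signalling, differed by -0.07 and -0.02, and Trim24 by 0.08 and -0.12. Of 4 muscle members (Trim54, Trim55, Trim63 and Trim72), all below the median gene, and 4 members with NHL repeats (Trim2, Trim3, Trim32 and Trim71), 0 were called in either. By the unadjusted p under 0.05, 21 of the 64 Trim genes passed without rosiglitazone, against 16% of all genes, and 18 with it, against 20.7%. The members not called ran from -0.26 to 0.54 without rosiglitazone and from -0.22 to 0.29 with it.

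TRIM proteins whose symbols the rule does not match were read in the same way. Pml, the interferon-induced organiser of nuclear bodies, rose by 0.56 ± 0.09 (limma adjusted p = 0.0016) with rosiglitazone, from 8.67 ± 0.15 to 9.23 ± 0.14. It differed by 0.26 (adjusted p = 0.143) without. Pml read 9.13 ± 0.11 in EtOH, and it fell by 0.46 ± 0.09 with rosiglitazone after ethanol (adjusted p = 0.00113). The microtubule-binding Mid1 and Mid2 were called in neither: Mid1 differed by -0.15 and 0.09, and Mid2 by 0.25 and 0.19.

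Of 37 measured interferon-stimulated genes that are not Trim genes, 34 rose and 0 fell without rosiglitazone (median difference 1.03) and 35 rose and 0 fell with it (median 1.14). Irf7, the transcription factor that amplifies the interferon response, rose by 2.31 ± 0.14 and 2.23 ± 0.14 (limma adjusted p = 4.01e-06 and 1.65e-06), and Isg15, a ubiquitin-like modifier, by 1.23 ± 0.14 and 1.51 ± 0.14 (adjusted p = 0.000215 and 2.21e-05). Of 18 macrophage markers, 2 rose and 2 fell without rosiglitazone, and 2 rose and 1 fell with it. Fcgr1 and Mpeg1 rose in both, by 0.54 and 0.52 without it and by 0.96 and 0.89 with it. Itgam (-0.63) and Lyz2 (-0.24) fell without it, and Lyz2 (-0.20) with it. The mean signal of the 18 markers was 8.47 to 8.76 on the EtOH arrays and 8.40 to 8.60 on the 4OHT arrays. It was at most 8.16 on the EtOH_Rosi arrays and 8.18 to 8.25 on the 4OHT_Rosi arrays. The 4OHT_Rosi arrays were therefore above EtOH_Rosi in this mean, which includes Fcgr1 and Mpeg1. Between these groups the other markers of the list differed by -0.39 (Itgam) to 0.26 (C1qc). With rosiglitazone the median difference of the 18 markers was 0.10, and 12 of them differed upward. The list's part in the Trim differences with rosiglitazone was not tested. Of 10 endothelial markers, 0 were called without rosiglitazone and 2 rose with it. Among 13 measured adipocyte markers, 2 rose and 1 fell without rosiglitazone, and 1 rose and 0 fell with it. The shares of all genes were 2.13% higher and 1.79% lower without rosiglitazone, and 4.65% higher and 3.38% lower with it.

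The members were also read by their place on the chromosomes. By RefSeq gene order, 20 Trim genes fell into 5 clusters in which neighbours lie no more than 10 genes apart. The largest, on chromosome 7, holds 9 members in the order Trim6, Trim34a, Trim12a, Trim12c, Trim30b, Trim30c, Trim30a, Trim30d and Trim30e-ps1. Of the 9, 2 rose without rosiglitazone (median difference 0.28) and 5 with it (median 0.53). Of the 55 members elsewhere, 5 rose and 1 fell without rosiglitazone (median 0.00), and 8 rose with it (median 0.03). Of all genes 2.13% and 4.65% rose. Several of the 9 are close copies and do not count as independent genes. Trim21 lies in a separate pair on chromosome 7 with Trim68, which differed by 0.08 and 0.01. In a group of 5 on chromosome 17, Trim26 rose with rosiglitazone, and Trim10, Trim15, Trim31 and Trim40 were called in neither comparison.

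**Figure D3:**
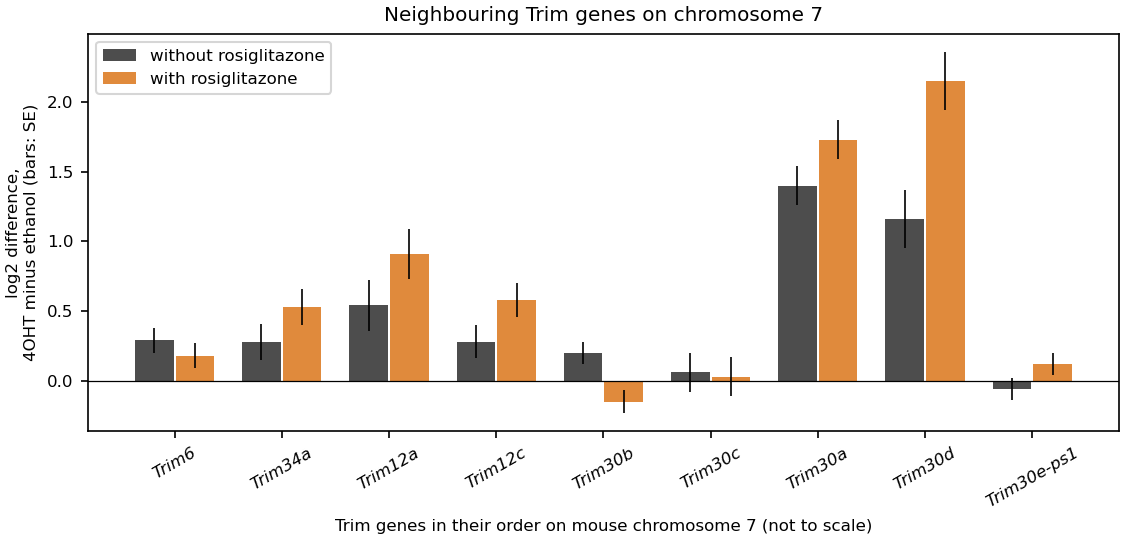
Log2 difference of 4-hydroxytamoxifen minus ethanol (vertical axis; error bars are SE from limma) for the 9 neighbouring Trim genes, in their order on chromosome 7 and not to scale. Trim30a and Trim30d have the tallest bars (1.40 and 1.73, 1.16 and 2.15), while Trim30b, Trim30c and Trim30e-ps1 on either side of the pair stay between -0.15 and 0.20.

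Set beside the sequences shown above, 15 Trim genes rose in at least 1 of the 2 comparisons, 11 of them have a promoter window, and 7 of the 11 (63.6%) hold a match to the motif. Of the 38 other members with a window, 1 does (2.63%), Trim2, which differed by -0.16 and 0.12 and was not called. Of the interferon-stimulated genes outside the family, 13 of 31 (41.9%) hold one. Trim25, Trim38, Trim66 and Trim67 rose and have a window without these letters. No promoter window was available for Trim8, Trim14, Trim29 and Trim43c, so they were not searched. The 2 Trim30 and the 2 Trim12 windows are near copies of each other.

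The remaining comparisons ask what rosiglitazone did to the family. In cells treated with ethanol, 6 Trim genes rose and 16 fell, 34.4% called, against 30.7% of all genes (14.4% higher and 16.3% lower), a share near that of all genes. In cells treated with 4-hydroxytamoxifen 7 rose and 4 fell, 17.2% called, against 23.7% of all genes (11.6% higher and 12.1% lower). The balance of the second count moved with single arrays: it was 6 rises and 8 falls without the third 4OHT_Rosi array, and 5 and 5 without the first 4OHT array. The differences of these comparisons share no arrays with each other, but the spread behind their p-values was estimated from all arrays together. The median difference of the members was -0.01 after ethanol (0.02 when arrays were centred on their medians) and -0.06 after 4-hydroxytamoxifen, against 0.01 and 0.00 for all genes. The arrays did not overlap for 25 members (39.1%) after ethanol, against 40.7% of all genes, and for 19 (29.7%) after 4-hydroxytamoxifen, against 36%. Called in the same direction in both were 8 genes, 8 of the 22 called after ethanol and 8 of the 11 after 4-hydroxytamoxifen: Trim29, Trim14, Trim6, Trim2 and Trim41 rose, and Trim16, Trim28 and Trim3 fell. The share of all genes called in the same direction in both was not computed.

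Trim29 read 7.33, 7.46 and 7.03 in EtOH and 8.08, 8.31 and 8.04 in EtOH_Rosi, and 7.64, 7.55 and 7.62 in 4OHT and 8.65, 8.54 and 8.69 in 4OHT_Rosi. Every rosiglitazone array was above every array without it. The rise was 0.87 ± 0.10 (1.83-fold, limma adjusted p = 1.58e-05) after ethanol and 1.02 ± 0.10 (2.03-fold, adjusted p = 6.66e-06) after 4-hydroxytamoxifen. Trim14 rose by 0.35 ± 0.07 (adjusted p = 0.00107) and 0.48 ± 0.07 (adjusted p = 0.000132), and Trim6 by 0.48 ± 0.09 (adjusted p = 0.000787) and 0.37 ± 0.09 (adjusted p = 0.00729). Trim2, an NHL-repeat ligase known from neurons, rose by 0.21 ± 0.06 (adjusted p = 0.0213) and 0.50 ± 0.06 (adjusted p = 6.96e-05). Its first call was lost without the third EtOH array (0.17, adjusted p = 0.0953) or the second or the third EtOH_Rosi array (adjusted p = 0.0533 and 0.066).

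Trim41 rose by 0.24 ± 0.07 (limma adjusted p = 0.012) after ethanol, a call lost without the third EtOH array (0.21, adjusted p = 0.0523). After 4-hydroxytamoxifen it rose by 0.20 ± 0.07 (adjusted p = 0.0383), a call lost on leaving out any of 5 arrays, the second EtOH, the first and the third 4OHT and the second and the third 4OHT_Rosi (0.15 to 0.24 over all arrays left out, adjusted p up to 0.171). Without the third 4OHT_Rosi array it was 0.16 (adjusted p = 0.131). Trim67 rose after ethanol alone, by 0.35 ± 0.10 (adjusted p = 0.0205), a call lost without the second or the third EtOH array (0.33 and 0.32, adjusted p = 0.0628 and 0.0664) or the second EtOH_Rosi array (0.22, adjusted p = 0.096). Its difference after 4-hydroxytamoxifen was -0.09, and whether these 2 differ did not pass the interaction test (adjusted p = 0.194).

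Trim28 read 9.46, 9.39 and 9.44 in EtOH and 8.86, 9.03 and 9.03 in EtOH_Rosi, and 9.32, 9.28 and 9.35 in 4OHT and 8.91, 9.03 and 9.12 in 4OHT_Rosi. The rosiglitazone arrays were below the others throughout. It fell by 0.46 ± 0.07 (limma adjusted p = 0.000128) and by 0.30 ± 0.07 (adjusted p = 0.00521). Trim3, a neuronal NHL-repeat ligase, fell by 0.45 ± 0.08 (adjusted p = 0.000411) and 0.38 ± 0.08 (adjusted p = 0.00239). Trim16, a member without a RING finger that acts in stress responses, fell by 0.51 ± 0.09 (adjusted p = 0.000811) and 0.34 ± 0.09 (adjusted p = 0.0189), the second lost without the second or the third 4OHT or the first or the second 4OHT_Rosi array (-0.44 to -0.26 over all arrays left out, adjusted p up to 0.0901).

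Over all 12 arrays, Trim66, Trim59 and Trim8 were called after ethanol and not after 4-hydroxytamoxifen. Trim66 fell by 0.58 ± 0.06 after ethanol (limma adjusted p = 1.25e-05) and differed by -0.08 after 4-hydroxytamoxifen. Trim59 fell by 0.56 ± 0.08 after ethanol (adjusted p = 9.48e-05) and differed by -0.10 after 4-hydroxytamoxifen (-0.20 and called, adjusted p = 0.0393, without the third 4OHT_Rosi array). Trim8 fell by 0.51 ± 0.08 after ethanol (adjusted p = 0.000155) and differed by -0.17 after 4-hydroxytamoxifen (-0.25 and called, adjusted p = 0.0297, without that array). Of these 3, the gap between the 2 values passed the interaction test for Trim66 alone, as given above.

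After 4-hydroxytamoxifen, Trim38 rose by 0.30 ± 0.08 (limma adjusted p = 0.0131; 0.24 and 0.069 without the second 4OHT array). Trim56 rose by 0.25 ± 0.08 (adjusted p = 0.0307), a call lost without any 1 of the 3 4OHT arrays or without the third 4OHT_Rosi array (0.16, adjusted p = 0.115). Trim24 fell by 0.26 ± 0.07 (adjusted p = 0.0113; -0.21 and 0.061 without the second 4OHT array). After ethanol these 3 differed by -0.02, 0.13 and -0.06 and were not called.

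Within the interferon-inducible list, 2 of 15 rose (Trim14 and Trim6) and 5 fell after ethanol, and 4 rose and 0 fell after 4-hydroxytamoxifen. Of all genes 14.4% rose and 16.3% fell after ethanol, and 11.6% rose and 12.1% fell after 4-hydroxytamoxifen. Trim30d fell by 0.99 ± 0.21 after ethanol (limma adjusted p = 0.00199), and its arrays did not overlap. Trim30a fell by 0.52 ± 0.14 (adjusted p = 0.0097), a call lost without the second or the third EtOH array (-0.43 and -0.40, adjusted p = 0.0513 and 0.0519). Trim12a fell by 0.56 ± 0.18 (adjusted p = 0.0249) with overlapping arrays, and lost the call without the second EtOH array (-0.45, adjusted p = 0.111) or the third EtOH_Rosi array (-0.31, adjusted p = 0.0836). Trim21 fell by 0.34 ± 0.09 (adjusted p = 0.0118), lost without the second EtOH (-0.30, adjusted p = 0.0549) or the third EtOH_Rosi array (-0.29, adjusted p = 0.0525), and Trim26 by 0.34 ± 0.07 (adjusted p = 0.00216). These are the EtOH_Rosi arrays that also serve as the control of the second 4-hydroxytamoxifen comparison. After 4-hydroxytamoxifen the differences of Trim30d, Trim30a, Trim12a, Trim21 and Trim26 were -0.01, -0.18, -0.19, -0.09 and -0.18, and none passed the test. Without the third 4OHT_Rosi array Trim26 fell by 0.24 (adjusted p = 0.0287) and Trim30b by 0.27 (adjusted p = 0.046).

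The other 5 falls after ethanol were those of Trim46, Trim27, Trim35, Trim39 and Trim47. Trim46, which organises axonal microtubules, fell by 0.45 ± 0.12 (limma adjusted p = 0.0115), a call lost without the third EtOH or the third EtOH_Rosi array (-0.50 to -0.36 over all arrays left out, adjusted p up to 0.0585). The ligases Trim27 and Trim35 fell by 0.30 and 0.29 (adjusted p = 0.00237 and 0.00436), and Trim39 and Trim47 by 0.21 each (adjusted p = 0.038 and 0.0465). The call of Trim39 was lost without the first or the third EtOH, the first or the second 4OHT, or the first or the second EtOH_Rosi array (-0.25 to -0.18 over all arrays left out, adjusted p up to 0.14). That of Trim47 was lost on leaving out any of 8 arrays, all but the second EtOH, the first and the third 4OHT and the first 4OHT_Rosi array (-0.26 to -0.15 over all arrays left out, adjusted p up to 0.189). Without the third 4OHT_Rosi array the Trim47 difference was -0.21 (adjusted p = 0.0513). After 4-hydroxytamoxifen Trim46, Trim27, Trim35, Trim39 and Trim47 differed by -0.20, -0.12, -0.15, -0.06 and -0.10 and were not called.

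Cell type markers moved with rosiglitazone as well. Of 18 macrophage markers, 0 rose and 14 fell after ethanol (median difference -0.52), and 0 rose and 9 fell after 4-hydroxytamoxifen (median -0.28). Of 10 endothelial markers, 10 fell after ethanol and 9 after 4-hydroxytamoxifen, with mean signals of 9.19 to 9.35 in EtOH and 9.11 to 9.25 in 4OHT, and with rosiglitazone 8.47 to 8.61 after ethanol and 8.43 to 8.75 after 4-hydroxytamoxifen. Of 12 preadipocyte markers, 10 and 11 fell. Among 13 measured adipocyte markers, 7 rose and 3 fell after ethanol, and 4 rose and 3 fell after 4-hydroxytamoxifen. The shares of all genes were 14.4% higher and 16.3% lower after ethanol, and 11.6% higher and 12.1% lower after 4-hydroxytamoxifen. The part of the cell type markers in the Trim differences with rosiglitazone was not tested.

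**Figure D4:**
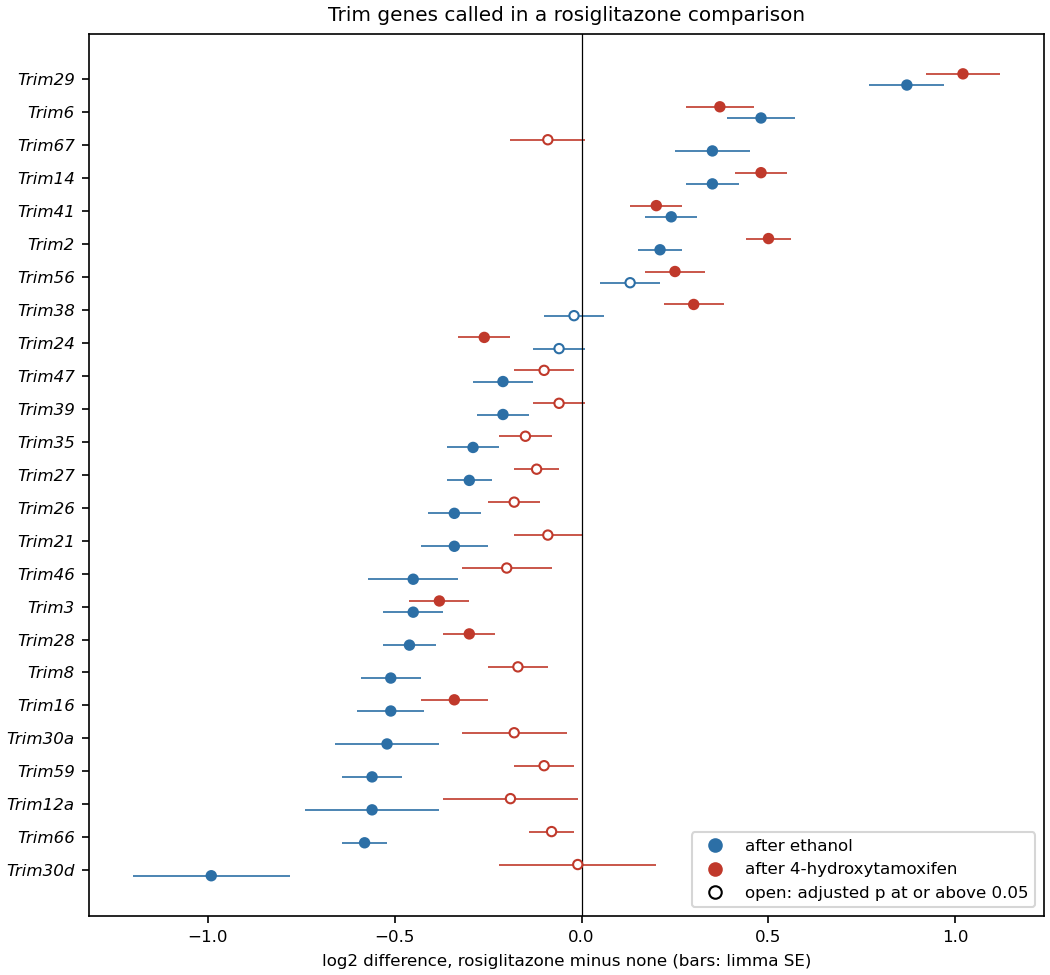
Log2 difference of rosiglitazone minus none (horizontal axis; error bars are SE from limma) for the 25 Trim genes called in either rosiglitazone comparison, after ethanol (blue) and after 4-hydroxytamoxifen (red), filled where the adjusted p was under 0.05. Trim29 lies farthest to the right in both, at 0.87 and 1.02, and Trim30d farthest to the left after ethanol, at -0.99, with -0.01 after 4-hydroxytamoxifen.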

How the data were processed

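The values were log2 probe set signals of 41345 probe sets on 12 arrays, as deposited by the authors. They came from Affymetrix Expression Console, per the submitters' processing notes. The version used, how probes were summarised and how arrays were normalized are not stated in those notes as given here. Of 69 probe sets with a single Trim symbol, the brightest by mean over 12 arrays was kept for each of 64 genes, all matched to RefSeq, and 7 probe sets with several symbols that include a Trim gene were left out. With limma 3.58.1 in R 4.3.3 (lmFit, eBayes), 22184 genes on all 12 arrays were fitted with the 4 group means as terms, and 5 contrasts were tested. Genes were called at a Benjamini-Hochberg adjusted p under 0.05 over all genes of a contrast, with no filter on dim genes and no fold minimum. The script was checked on simulated data. Named with values were members called in a 4-hydroxytamoxifen contrast or the interaction, the 8 largest rises and 8 largest falls with rosiglitazone, the 3 brightest members, the interferon and PHD-bromodomain lists, Prdm16, Irf7, Isg15, Pml, Mid1 and Mid2. Other members named were chosen after their values were seen. The members and lists were chosen with earlier results of these data known. The lists come from general knowledge. The labels do not say whether replicate numbers pair the arrays. Residual correlations exceeded 0.1 in 0 of 18 pairs of same-numbered arrays (-0.24 to 0.079), which does not exclude a pairing. Results were recomputed with each array left out in turn, with a replicate block, with array weights, with robust eBayes on an intensity trend, on only the arrays of the groups compared, after quantile normalization or median centring, on genes above the 50th percentile of signal, on the mean of a gene's probe sets, and with a minimum of 2-fold. Figures were drawn with matplotlib 3.10.9.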

Additional observations from a re-analysis of the deposited data

Results flagged for a closer look

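For Trim66 the 4-hydroxytamoxifen differences with and without rosiglitazone differed by the test of the gap itself: it was 0.50 (limma, adjusted p = 0.0252), and it was lost when any of 8 of the 12 arrays was left out.

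Probe sets that carry several Trim symbols entered no comparison, and a pair of them read higher after 4-hydroxytamoxifen, with differences that were not tested. The probe set annotated to both Trim34b and Trim34a read 7.05 ± 0.31 in EtOH and 7.76 ± 0.16 in 4OHT (SD, n = 3 each), a difference of 0.71, and 6.52 ± 0.36 in EtOH_Rosi and 7.49 ± 0.25 in 4OHT_Rosi, a difference of 0.97. A probe set annotated to both Trim12c and Trim5 read 6.11 ± 0.09 and 6.77 ± 0.24, a difference of 0.66, and with rosiglitazone 6.16 ± 0.11 and 6.77 ± 0.12, a difference of 0.61. In both probe sets the arrays of the groups compared did not overlap. Another probe set of Trim12c and Trim5 differed by 0.39 and 0.34, and its arrays overlapped with rosiglitazone.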

How the results depend on the processing

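No called Trim gene changed direction under the alternatives run. The balance of calls did: for rosiglitazone after 4-hydroxytamoxifen, 7 rises and 4 falls became 5 and 5 with the block or without the first 4OHT array, and 6 and 8 without the third 4OHT_Rosi array. Over all genes, higher calls for rosiglitazone after ethanol went from 3191 of 6814 to 3813 of 6924 under median centring, and the members' median for rosiglitazone after ethanol went from -0.01 to 0.02 under median centring. With 2-fold as the minimum, the Trim genes called were 2 without rosiglitazone, 2 with it, 0 and 1 for rosiglitazone after ethanol and after 4-hydroxytamoxifen, and 0 in the interaction. Array weights gave 13 called without rosiglitazone in place of 8 (9 rose and 4 fell) and 2 in the interaction in place of 1. Leaving out 1 array at a time gave 7 to 9 without rosiglitazone, 10 to 13 with it and 0 to 2 in the interaction. For rosiglitazone it gave 15 to 23 after ethanol and 7 to 14 after 4-hydroxytamoxifen. In this last comparison the 7 came without the second 4OHT array. The replicate block, over numbers that the labels do not say pair the arrays, gave 0 in the interaction (Trim66, limma adjusted p = 0.0564). It gave 8, 12, 22 and 10 in the other comparisons. Over the 64 members and 6 genes beside them, in 5 contrasts, leaving out an array kept 4103 values on their side of the threshold, ended 73 calls and added 24. Among calls after 4-hydroxytamoxifen with rosiglitazone, the fit of only the groups compared lost Trim34a, Trim38 and Trim66 (adjusted p = 0.0732, 0.0983 and 0.112), array weights lost the same 3 (0.0895, 0.06 and 0.0565) and the block lost Trim38 (0.0688). Quantile normalization lost Trim43c without rosiglitazone (0.0648). For rosiglitazone after ethanol, the fit of only the groups compared lost Trim12a (0.0783) and Trim47 (0.0578), quantile normalization lost Trim12a, Trim39 and Trim47 (0.0515, 0.108 and 0.159), median centring lost Trim39 and Trim47 (0.0934 and 0.0963), array weights lost Trim47 (0.117), the intensity trend lost Trim39 (0.0565), and the mean of all probe sets lost Trim27 (-0.17, 0.0965). After 4-hydroxytamoxifen, the fit of only the groups compared and the block each lost Trim41 (0.082 and 0.0609) and Trim56 (0.0588 and 0.0537). Calls were gained too. Without rosiglitazone, Trim12a and Trim66 passed in the fit of only the groups compared (0.015 and 0.0435), Trim26 with array weights and with the filter (0.0293 and 0.0421), Mid2 with the intensity trend and the filter (0.044 and 0.0419), and Trim66, Trim2, Trim27 and Trim80 with array weights (0.0133, 0.038, 0.0387 and 0.0311). With rosiglitazone, Trim44 passed with the trend and the filter (0.026 each), and Trim56 and Trim16 with the filter (0.0343 and 0.0452). In the interaction Trim59 passed with array weights and the filter (0.0346 and 0.0401). For rosiglitazone after 4-hydroxytamoxifen, Trim26 passed with array weights and the filter (0.0298 and 0.0431), Trim25 in the fit of only the groups compared and the filter (0.00762 and 0.0435), Trim43c with the block, the trend and the filter (0.0405, 0.0424 and 0.0293), and Trim63 with array weights (0.0425); Mid1 passed with the trend, array weights, quantile normalization and the filter (0.0306, 0.017, 0.0249 and 0.0275); without the third 4OHT_Rosi array Mid1 and Trim42 passed (0.00685 and 0.0415). For rosiglitazone after ethanol, Trim62, Trim69 and Trim72 passed with array weights (0.0115, 0.0398 and 0.0457), Trim56 after quantile normalization (0.0256) and Trim75 after median centring (0.0474). Counts over all genes moved by more than 1.5 times under array weights (2242 for 868 without rosiglitazone, 396 for 223 in the interaction), the fit of only the groups compared (829 for 1781 with rosiglitazone), and, in the interaction, the intensity trend (393), the block (116) and the filter (381). With the 2-fold minimum the all-gene counts of the 5 contrasts were 70, 92, 555, 307 and 24. Leaving out 1 array gave 475 to 1059 without rosiglitazone, 1182 to 1712 with it and 51 to 331 in the interaction. Array signal limits what can be read from dim members, and 31 lie below the median gene.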
